A study of Homo sapiens with 9 samples.

Results

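The data cover 10 long noncoding RNAs of DU145 cells, an established human prostate cancer line. They were chosen by name out of 27902 genes, as RNAs known for their abundance in cultured cells, and each level was the sum of its RefSeq transcripts. *MALAT1*, *NEAT1*, *KCNQ1OT1*, *NORAD* and *OIP5-AS1* are long RNAs, and *GAS5*, *SNHG1*, *SNHG5*, *SNHG8* and *EPB41L4A-AS1* are short spliced host genes of small nucleolar RNAs (snoRNAs). The study compared RNA-seq of DU145 cells carrying a scrambled shRNA (labelled scramble, here control) with cells carrying *FZD6* shRNA1 or shRNA2 (labelled shRNA FZD6 #1 and #2), each against the Wnt receptor gene *FZD6*, in 3 libraries per group. All 9 libraries bear the genotype label WT and came from the same line. The hairpins were cloned in pLKO.1 vectors, so the controls also carried a hairpin. The labels call the libraries triplicates but do not say that they came from separate cultures. P-values therefore measure the spread between these libraries, which may be technical.

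Long noncoding RNAs act as RNA rather than as templates for protein. *MALAT1* lies in nuclear speckles, which store splicing factors, and its 3′ end is cut rather than polyadenylated and folds into a triple helix. *NEAT1* is the scaffold of paraspeckles, *KCNQ1OT1* is an imprinted RNA antisense to *KCNQ1*, *NORAD* binds PUMILIO proteins, and *OIP5-AS1* binds the microRNA miR-7. *NORAD* and *OIP5-AS1* are found largely in the cytoplasm. The host genes carry snoRNAs in their introns. Snipped out of the introns, snoRNAs guide the modification of ribosomal RNA, while the spliced exons of several hosts are destroyed by nonsense-mediated decay when ribosomes translate them. *GAS5* and other hosts start with a run of pyrimidines, a feature shared with genes of the translation machinery.

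These features could be read in the reference sequences (GENCODE transcripts, and RefSeq for *SNHG1*, both on GRCh38). The starts of 4 host genes are shown because such hosts are known for a pyrimidine-rich start, with the opening run of pyrimidines in capitals. They lie at chr1:173867964-173867989 on the minus strand for *GAS5*, at chr11:62855860-62855885 on the minus strand for *SNHG1*, at chr6:85678708-85678733 on the minus strand for *SNHG5* and at chr4:118278758-118278783 on the plus strand for *SNHG8*.
GAS5 start: CTTTTCgaggtaggagtcgactcctg
SNHG1 start: CTCatttttctactgctcgtggtaag
SNHG5 start: CTTTTacgtcggccttcgcgagcgtc
SNHG8 start: CTTTCacattcgggaagcgtcgggat
A start of C followed by 4 pyrimidines was found in 11 of 86 annotated transcripts of the host genes and in 0 of 37 transcripts of the long RNAs. At least 1 such transcript was annotated for 4 of the 5 hosts, *EPB41L4A-AS1* being the exception. The *SNHG1* start shown, with 3 pyrimidines, is not among them, and the matching *SNHG1* transcript is annotated from another start. Of 206694 annotated human transcripts, 2.41% began in this way, and 6.75% of all genes had at least 1 such transcript. The hosts had from 4 (*EPB41L4A-AS1*) to 29 (*GAS5*) annotated transcripts, and a gene with more of them has more openings for a match. The counts are of matches in annotated starts and say nothing of how the RNAs were translated here.

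*NORAD* is shown by the first and last of its PUMILIO elements, the 8 letters TGTANATA in capitals. The whole stretches shown lie at chr20:36050184-36050209 and chr20:36046346-36046371 on the minus strand.
NORAD first element: gaaggcctgTGTATATAatatgaaaa
NORAD last element: tagcctattTGTAAATAcctttgtta
The 5339 bases of *NORAD* held 15 such elements on the transcribed strand, and 10 of them read TGTATATA. Only 3 of 7747 annotated transcripts of 4500 to 6500 bases had 15 or more (0.0387%), and the median transcript of this length had 0.

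The 3′ ends of *MALAT1* and *NEAT1* are shown because they close these RNAs without a poly(A) tail. Capitals mark U-rich bases of *MALAT1*, its run of 13 A and the A-rich end of the long form of *NEAT1*. The whole stretches shown lie at chr11:65506021-65506046, chr11:65506090-65506118 and chr11:65445513-65445540 in this order, all on the plus strand.
MALAT1 U-rich stretch: catgaaggTTTTTCTTTTcctgagaa
MALAT1 A-rich stretch: tctagcttAAAAAAAAAAAAAgcaaaaga
NEAT1 end: gtgaaagagtgagcaggAAAAAGCAAAA
The study's methods name the TruSeq Stranded mRNA kit, which captures RNA by its poly(A) tail, so the levels of these forms cannot be set against those of polyadenylated RNAs.

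By estimate each library held 31.6 to 39.6 M fragments. *FZD6* was at 20.5 ± 0.441 FPKM (n = 3, SD) in control cells, and fell to 9.83 ± 0.376 FPKM (n = 3, SD) with shRNA1 and 8.11 ± 0.598 FPKM (n = 3, SD) with shRNA2. FPKM is a count of sequenced fragments scaled to the length of the transcript and to the depth of the library. The epithelial markers *KRT8* and *KRT18* were at 202 FPKM or more in every library, the mesenchymal marker *VIM* was at 1018 to 1104 FPKM, the luminal prostate marker *KLK3* was at 0.0138 FPKM or less, and the leukocyte marker *PTPRC* was listed at 0. The epithelial adhesion genes *CDH1*, at 3.38 to 5.02 FPKM, and *EPCAM*, at 17.3 to 23.4 FPKM, were called lower (−0.28, limma adjusted p = 0.0104) and higher (0.26, limma adjusted p = 0.0173) with knockdown, and their part in the other results was not tested. Bulk RNA-seq cannot tell fewer cells with an RNA from less of the RNA per cell.

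In control cells 4 of the 5 host genes stood at the top of the 10 RNAs. Per kilobase, *GAS5* was at 271 ± 13.3 FPKM (n = 3, SD) and *SNHG5* at 198 ± 1.84 FPKM (n = 3, SD), above 98.0% and 96.9% of the 12509 genes that averaged at least 1 FPKM. *SNHG1* followed at 85.5 ± 1.89 FPKM (n = 3, SD) and *SNHG8* at 50.5 ± 1.40 FPKM (n = 3, SD). The long RNAs were below these 4, with *NORAD* at 23.7 ± 1.41 FPKM (n = 3, SD), *MALAT1* at 18.1 ± 1.85 FPKM (n = 3, SD) and *OIP5-AS1* at 16.8 ± 0.557 FPKM (n = 3, SD). The ranges of *MALAT1* and *OIP5-AS1* overlapped in control cells, so their order was not resolved. The kit captures RNA by its poly(A) tail, which *MALAT1* lacks. The place of *MALAT1* therefore describes these libraries and not its rank in the cells.

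The name abundant did not hold for 3 of the 10 in these libraries. *NEAT1* was at 6.10 ± 0.160 FPKM (n = 3, SD) and *EPB41L4A-AS1* at 6.02 ± 0.931 FPKM (n = 3, SD) in control cells, both under the median of 9.82 FPKM over the tested genes and not separated from each other. The long form of *NEAT1* has no poly(A) tail, so this level does not give the abundance of *NEAT1* in the cells. *KCNQ1OT1* was near 0, with a highest level of 0.000708 FPKM in any library and 0 in shRNA2 replicate 2. This level corresponded to an estimated 2.15 fragments or fewer on 91667 bases, too few to compare the groups. *KCNQ1OT1* was thus left out of the tests, which covered the other 9 RNAs.

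**Figure D1:**
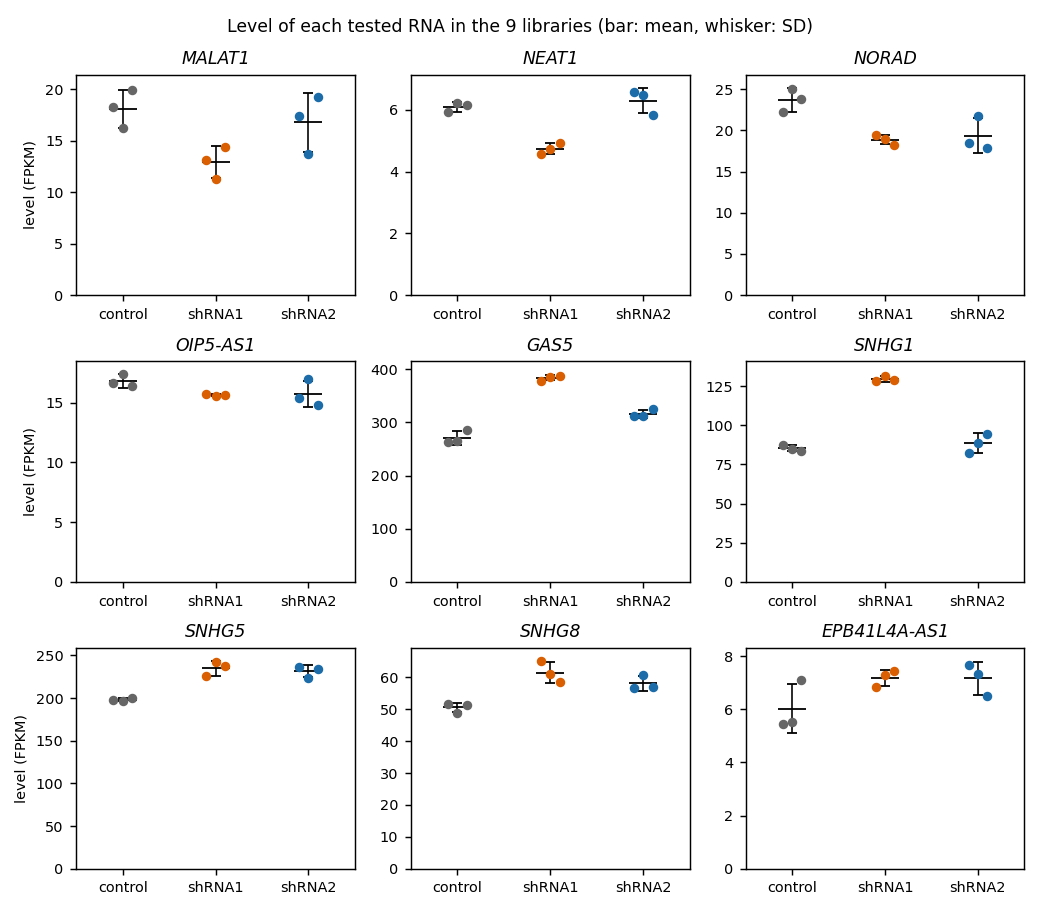
Level in FPKM (y axis, from 0) of the 9 tested RNAs in control, shRNA1 and shRNA2 libraries, with a point for each library, a bar at the mean and whiskers of 1 SD (n = 3). *GAS5*, *SNHG5* and *SNHG8* were higher than control in all 6 knockdown libraries and *NORAD* was lower in all 6, whereas *SNHG1* and *NEAT1* stood apart with shRNA1 alone.

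With *FZD6* knockdown (6 libraries against 3), the 5 tested host genes had higher mean levels and the 4 tested long RNAs lower ones. Limma called 3 hosts higher, *GAS5*, *SNHG5* and *SNHG8*, and 1 long RNA lower, *NORAD*, at an adjusted p under 0.05. These 4 calls among 9 RNAs stood against 20.6% of all 12509 tested genes, with 13.5% called higher and 7.1% called lower. The same 4 RNAs were those whose knockdown and control libraries did not overlap, as was so for 25.9% of all genes. Without control replicate 2 only 1 of the 9 was called. With 6 libraries against 3 an exact permutation test can go no lower than p = 0.0119.

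*SNHG5*, the host of *SNORD50A* and *SNORD50B* at chr6:85677007-85678733, read 198, 197 and 200 FPKM in control cells. It read 226, 242 and 237 FPKM with shRNA1 and 237, 224 and 234 FPKM with shRNA2. Every knockdown library lay above every control library, and the hairpins gave overlapping ranges. The log2 fold change of knockdown against control was 0.23 (standard error, SE, 0.031; limma adjusted p = 0.00299, two-sided exact permutation p = 0.0119), or 17.7% more. It was 0.24 with shRNA1 (limma adjusted p = 0.00696) and 0.22 with shRNA2 (limma adjusted p = 0.00472).

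*SNHG8*, the host of *SNORA24* at chr4:118278762-118279823, showed the same pattern at a lower level. It read 51.5, 48.9 and 51.2 FPKM in control cells, 65.0, 60.9 and 58.5 FPKM with shRNA1, and 56.6, 60.7 and 56.9 FPKM with shRNA2. The knockdown libraries again all lay above the control libraries. *SNHG8* rose by 0.24 on the log2 scale with knockdown (SE 0.046, limma adjusted p = 0.0103), and its adjusted p without control replicate 2 was 0.0534. *SNHG8* was called higher with shRNA1 (0.28, limma adjusted p = 0.00984) and with shRNA2 (0.20, limma adjusted p = 0.0204).

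*GAS5*, the host of 11 annotated snoRNAs at chr1:173863899-173867991, is known to accumulate when growth stops. It read 263, 264 and 287 FPKM in control cells, 379, 385 and 388 FPKM with shRNA1, and 311, 311 and 325 FPKM with shRNA2. The 3 groups did not overlap, with control cells lowest and shRNA1 cells highest. Over both hairpins the rise was 0.36 on the log2 scale (SE 0.089, limma adjusted p = 0.0239), and the adjusted p was 0.0914 without control replicate 1 and 0.0927 without control replicate 2. It was 0.50 with shRNA1 (limma adjusted p = 0.00139) and 0.22 with shRNA2 (limma adjusted p = 0.00695).

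*SNHG1*, the host of 8 annotated snoRNAs at chr11:62851978-62855885, separated the hairpins most. It read 87.5, 85.2 and 83.7 FPKM in control cells and 128, 132 and 129 FPKM with shRNA1, but 82.4, 89.0 and 94.7 FPKM with shRNA2. The shRNA2 libraries overlapped the control libraries, and the shRNA1 libraries lay above both groups. *SNHG1* rose by a log2 fold change of 0.60 with shRNA1 (SE 0.049, limma adjusted p = 0.00142), the largest change among the 9 RNAs with that hairpin, and had a value of 0.05 with shRNA2 (SE 0.049, limma adjusted p = 0.476). With its longest transcript alone the shRNA2 value was 0.33 and called (limma adjusted p = 0.0253), 1 of 22 alternatives to do so. With both hairpins together its log2 fold change of 0.32 was not called (SE 0.165, limma adjusted p = 0.199).

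*EPB41L4A-AS1*, the host of *SNORA13* at chr5:112160526-112162501, was the lowest of the hosts. It read 5.45, 5.52 and 7.10 FPKM in control cells, 6.85, 7.30 and 7.42 FPKM with shRNA1, and 7.65, 7.34 and 6.48 FPKM with shRNA2. Control replicate 3 lay within both knockdown ranges. Its log2 fold change of 0.23 was not called (SE 0.077, limma adjusted p = 0.0712). Without control replicate 3 it was 0.33 and called (limma adjusted p = 0.0157).

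Among the long RNAs, *NORAD* at chr20:36045618-36050960 was the one that fell with both hairpins. It read 22.2, 25.04 and 23.8 FPKM in control cells, 19.4, 18.9 and 18.3 FPKM with shRNA1, and 18.4, 21.8 and 17.9 FPKM with shRNA2. All knockdown libraries lay below all control libraries, with shRNA2 replicate 2 the nearest to them. Over both hairpins it changed by −0.30 on the log2 scale (SE 0.062, limma adjusted p = 0.0132, two-sided exact permutation p = 0.0119), and the adjusted p was 0.0647 without control replicate 2. *NORAD* changed by −0.31 with shRNA1 (limma adjusted p = 0.0283) and by −0.28 with shRNA2 (limma adjusted p = 0.0293). The shRNA1 call was lost in 5 and the shRNA2 call in 4 of the 9 leave-one-out fits, whose adjusted p-values reached 0.0935 (without shRNA1 replicate 3) and 0.0946 (without control replicate 2). The log2 fold change stayed between −0.37 and −0.23 over all alternatives for either hairpin.

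*NEAT1* at chr11:65422798-65445538 read 5.92, 6.21 and 6.17 FPKM in control cells. With shRNA1 it read 4.58, 4.74 and 4.91 FPKM, below every other library, and with shRNA2 6.59, 6.47 and 5.85 FPKM. It fell with shRNA1 by a log2 fold change of −0.31 (SE 0.045, limma adjusted p = 0.00708) and had a value of 0.04 with shRNA2 (SE 0.045, limma adjusted p = 0.551). Over both hairpins it was at −0.13 (SE 0.108, limma adjusted p = 0.414).

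*MALAT1* at chr11:65497738-65506512 read 18.2, 16.2 and 19.9 FPKM in control cells, 13.1, 11.3 and 14.4 FPKM with shRNA1, and 17.4, 13.7 and 19.3 FPKM with shRNA2. The shRNA1 libraries lay below the control libraries, while the shRNA2 libraries overlapped both. Replicate 2 was lowest and replicate 3 highest in every group. Its log2 fold change was −0.46 with shRNA1 (SE 0.136, limma adjusted p = 0.0541) and −0.11 with shRNA2 (SE 0.136, limma adjusted p = 0.578), and neither was called. The shRNA1 value was called in 5 of 21 alternatives. Without shRNA2 replicate 2, which lowers the shared estimate of the spread, the shRNA1 value was called (limma adjusted p = 0.0225), and so it was without shRNA2 replicate 3 (limma adjusted p = 0.0464). In shRNA2 replicate 2, where *MALAT1* was lowest of its group, *NORAD* and *OIP5-AS1* were highest of theirs.

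*OIP5-AS1* at chr15:41283990-41313338 read 16.6, 17.4 and 16.4 FPKM in control cells, 15.7, 15.6 and 15.6 FPKM with shRNA1, and 15.4, 16.97 and 14.8 FPKM with shRNA2. The shRNA1 libraries lay below the control libraries, while the control and shRNA2 ranges overlapped. Its log2 fold change of −0.09 was not called (SE 0.040, limma adjusted p = 0.129). It was called in 2 of 22 alternatives, 1 of them the fit without shRNA2 replicate 2, at −0.12 (limma adjusted p = 0.0248). The annotated *OIP5-AS1* overlaps *OIP5* on the opposite strand, which was at 16.4 to 20.5 FPKM. The library kit named in the study's methods marks strand, but the strand setting of the quantification was not given in the sources used here.

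**Figure D2:**
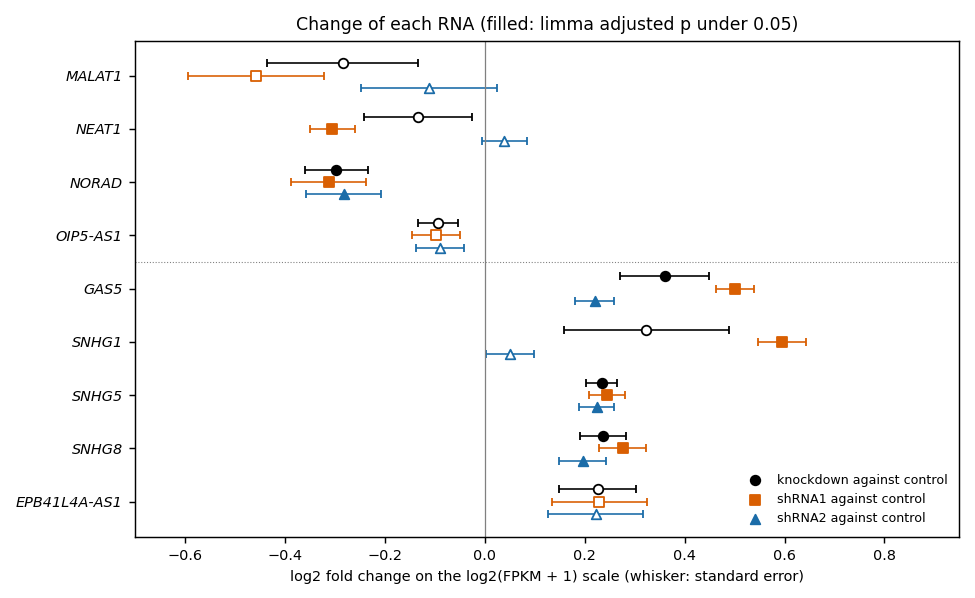
Log2 fold change (x axis, log2(FPKM + 1) scale, whiskers of 1 standard error) of the 9 tested RNAs for knockdown, shRNA1 and shRNA2 against control. Filled symbols have a limma adjusted p under 0.05. The long RNAs above the dotted line lie left of 0 except *NEAT1* with shRNA2 at 0.04, and the host genes below it lie right of 0.

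Taken by hairpin, shRNA1 moved more of these RNAs than shRNA2. Against control, limma called 6 of 9 with shRNA1, 4 hosts higher and *NEAT1* and *NORAD* lower, where 18.8% of all tested genes were called. It called 4 of 9 with shRNA2, *GAS5*, *SNHG5* and *SNHG8* higher and *NORAD* lower, where 26.7% of all genes were called. Without control replicate 2 the shRNA2 count was 2. The groups did not overlap for 8 of the 9 RNAs with shRNA1 and for 4 with shRNA2, against 46.8% and 40.6% of all genes. In 3 RNAs the hairpins did not overlap each other, as for 26.4% of all genes. Both comparisons used the same control libraries.

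Tested directly, 3 of the 9 RNAs differed between the hairpins, where limma called 6.71% of all tested genes. *SNHG1* was the lower with shRNA2, by a log2 difference of −0.54 (SE 0.049, limma adjusted p = 0.00126). *GAS5* was lower with shRNA2 by −0.28 (SE 0.039, limma adjusted p = 0.00693). *NEAT1* was higher with shRNA2 by 0.34 (SE 0.045, limma adjusted p = 0.00536). These 3 calls held in each of the 9 fits that left out a library. For *MALAT1* the log2 difference of 0.35 was not called (SE 0.136, limma adjusted p = 0.187), but it was in 2 of 21 alternatives. For *NORAD*, *OIP5-AS1*, *SNHG5* and *EPB41L4A-AS1* the difference was between −0.02 and 0.03, and for *SNHG8* it was −0.08 (limma adjusted p = 0.376). None of these 5 was called, which does not show that the hairpins act alike on them. *FZD6*, the target, also differed, with shRNA2 minus shRNA1 at −0.25 (log2 scale, limma adjusted p = 0.0273).

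To set the long RNAs against the hosts, the median difference from the control mean was taken over the 4 long RNAs and the 5 hosts in each library. The long minus host difference was −0.02, 0.07 and −0.01 in the control libraries on the log2 scale. These lie near 0 by construction, since the control libraries themselves set the reference. It was −0.67, −0.60 and −0.56 with shRNA1 and −0.28, −0.25 and −0.28 with shRNA2. The 3 groups did not overlap, with shRNA1 the farthest from control. From the fitted log2 fold changes, the medians were −0.21 for the long RNAs and 0.24 for the hosts with knockdown, beside 0.03 for all tested genes. The difference of −0.45 was −0.59 with shRNA1 and −0.32 with shRNA2. The RNAs were named with earlier results of these data known, so no test was run on this difference.

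**Figure D3:**
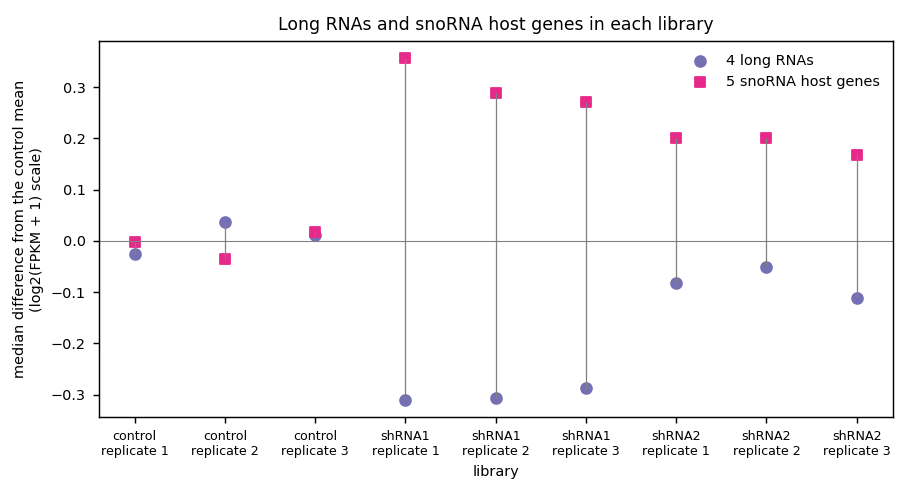
Median difference from the control mean (y axis, log2(FPKM + 1) scale) over the 4 tested long RNAs (circles) and the 5 host genes (squares) in each of the 9 libraries, joined by a line. The classes lie within 0.07 of each other in the control libraries, which set the reference, so that closeness is by construction. They are farthest apart with shRNA1, where the long minus host difference was −0.67 to −0.56.

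Transcript length moved with these changes across all genes. With knockdown the median log2 fold change was 0.12 for 1489 tested genes under 1000 bases, 0.08 for 2727 genes of 1000 to 2000 bases, 0.03 for 4674 genes of 2000 to 4000 bases, −0.05 for 2867 genes of 4000 to 8000 bases and −0.14 for 538 longer genes. Among the RNAs described here, *SNHG5* (430 bases), *SNHG8* (525 on average) and *GAS5* (630 on average) are in the shortest bin, and *MALAT1* (8708) and *OIP5-AS1* (8829) are in the longest.

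Once the length trend of each library was taken out, the knockdown calls of all 3 hosts were lost. The log2 fold change became 0.23 for *GAS5* (limma adjusted p = 0.111), 0.10 for *SNHG5* (limma adjusted p = 0.0540) and 0.11 for *SNHG8* (limma adjusted p = 0.242). *OIP5-AS1* changed sign, to 0.03 (limma adjusted p = 0.421). *NORAD*, at −0.25, was the single RNA still called (limma adjusted p = 0.0121), where 12.1% of all genes were called. The long minus host difference shrank to −0.31 with knockdown, to −0.45 with shRNA1 and to −0.09 with shRNA2.

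Limma then called 4 of the 9 RNAs with shRNA1, 1 with shRNA2 and 3 between the hairpins, where 12.0%, 23.4% and 9.54% of all genes were called. The shRNA1 changes of the larger movers outlasted this step. *SNHG1* kept a log2 fold change of 0.50 (limma adjusted p = 0.00210), *GAS5* 0.37 (limma adjusted p = 0.00195) and *NEAT1* −0.31 (limma adjusted p = 0.00598). *MALAT1* was at −0.33 (limma adjusted p = 0.255). The direct differences between the hairpins were also called with the trend removed, at −0.53 for *SNHG1* (limma adjusted p = 0.000748), −0.27 for *GAS5* (limma adjusted p = 0.00295) and 0.35 for *NEAT1* (limma adjusted p = 0.00262). The step takes away any real change that is shared by genes of like length as well as any technical change.

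**Figure D4:**
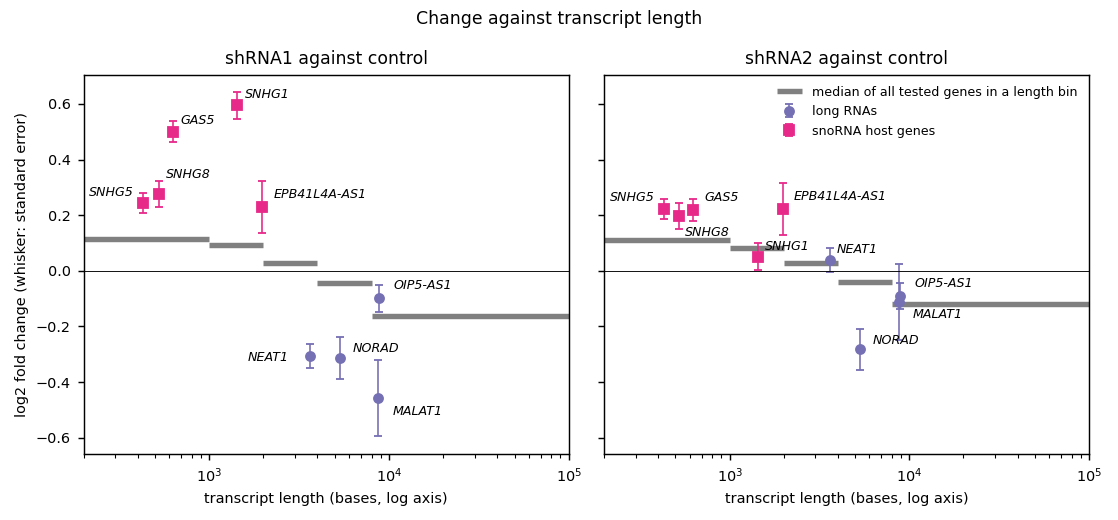
Log2 fold change (y axis, whiskers of 1 standard error) against transcript length (x axis, log scale) with shRNA1 (left) and shRNA2 (right). Grey bars are the medians of all tested genes in 5 length bins, falling from 0.12 to −0.16 with shRNA1 and from 0.11 to −0.12 with shRNA2. With shRNA1, *SNHG1* and *GAS5* lie farthest above and *NEAT1* and *MALAT1* farthest below the bars.

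The RefSeq transcripts of the RNAs were also read singly. Of 43 listed, 30 averaged at least 1 FPKM, and 1 was called in the knockdown comparison, the only entry of *SNHG5*, beside 1.26% of all single transcripts tested. With shRNA1 2 were called, both higher, where 0.422% of all single transcripts were called. They were NR_003098 of *SNHG1* and NR_003584 of *SNHG8*. Shares among transcripts of like sequence are estimates, and they differed widely between replicates.

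For *SNHG1*, NR_003098 rose from 34.3 ± 0.639 FPKM (n = 3, SD) in control cells to 62.7 ± 3.68 FPKM (n = 3, SD) with shRNA1, and was at 43.6 ± 3.77 FPKM (n = 3, SD) with shRNA2. With shRNA1 this made a log2 rise of 0.85 (limma adjusted p = 0.0210 over single transcripts). With shRNA2 the log2 difference from control was 0.33 (limma adjusted p = 0.0628), not called among single transcripts. The shRNA2 level was the lower of the hairpins, by −0.52 (limma adjusted p = 0.0450), where 0.493% of all single transcripts were called. NR_152580 was at 29.9 ± 6.48, 54.5 ± 7.28 and 31.5 ± 6.52 FPKM (n = 3, SD) in the same order, and was not called.

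For *SNHG8*, NR_003584 was at 21.2 ± 2.81 FPKM in control cells, 33.8 ± 2.28 FPKM with shRNA1 and 27.1 ± 0.368 FPKM with shRNA2 (n = 3 each, SD). With shRNA1 this made a log2 rise of 0.65 (limma adjusted p = 0.0468). The other *SNHG8* transcripts, NR_034011 and NR_034010, averaged between 11.9 and 17.5 FPKM in every group. *GAS5* was spread over 4 main transcripts, which took 20.3% to 24.2% of the gene's control level each. All 4 had their highest mean with shRNA1, at 80.4 to 92.6 FPKM. Limma adjusted p-values with shRNA1 were 0.0547 to 0.175 for these 4 (all with an unadjusted p under 0.05), so that no call was made.

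*NEAT1* was read almost wholly from its short polyadenylated form. NR_028272 took 99.5% of the control level, and the long form NR_131012, the one that builds paraspeckles, was at 0.0174 to 0.0414 FPKM in every library. The fall with shRNA1 was thus a fall of reads assigned to the short form, from 6.07 ± 0.157 to 4.72 ± 0.163 FPKM (n = 3, SD). *MALAT1* was read mostly as NR_144568, with 83.8% of the control level. The small RNA cut from the end of *MALAT1*, *MASCRNA*, was listed at 0 in every library.

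**Figure D5:**
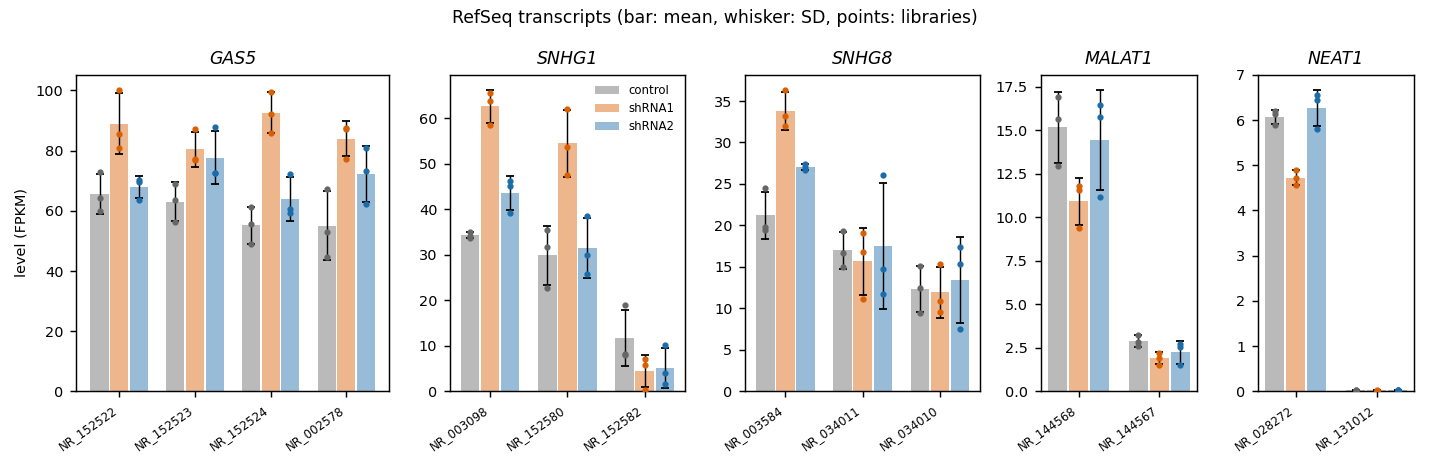
Level in FPKM (y axis, from 0; bar, mean; whisker, SD; points, libraries; n = 3) of the leading RefSeq transcripts (x axis) of *GAS5*, *SNHG1*, *SNHG8*, *MALAT1* and *NEAT1* in control, shRNA1 and shRNA2 cells. NR_003098 of *SNHG1* stands at 62.7 FPKM with shRNA1 beside 34.3 FPKM in control cells, and the long *NEAT1* form is near 0 throughout.

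The snoRNAs inside the hosts could not be followed. Of 23 snoRNA entries of 60 to 133 bases, 4 were at 0 in every library (under 1e-06 FPKM) and 6 were above it in all 9. *SNORD80* within *GAS5*, the most abundant, ranged from 1161 to 1829 FPKM in control cells, 1044 to 1929 FPKM with shRNA1 and 1604 to 2037 FPKM with shRNA2. *SNORD50A* and *SNORD50B* within *SNHG5* were listed at 0 in all libraries although their host was among the most abundant of these RNAs. *SNORD74*, also within *GAS5*, ranged from 59.2 to 408 FPKM over the 9 libraries, and no comparison was made.

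Other snoRNA hosts moved the same way in count. Of 23 listed, 19 were tested, and 17 had a log2 fold change above 0 with knockdown, with a median of 0.19 beside 0.03 for all tested genes. Limma called 7 of the 19, all of them higher, where 13.5% of all tested genes were called higher. *ZFAS1*, the host of *SNORD12* genes, rose from 607 ± 23.1 FPKM (n = 3, SD) to 806 ± 26.7 FPKM (n = 6, SD), a log2 fold change of 0.41 (limma adjusted p = 0.000803). *SNHG15* rose by 0.38 (limma adjusted p = 0.0188), *SNHG3* by 0.31 (limma adjusted p = 0.00282) and *SNHG32* by 0.25 (limma adjusted p = 0.0137). With the length trend removed the median was 0.11 and 4 were called, all higher, beside 12.1% of all genes called in either direction. Among these 4, *SNHG32* had no reference length, so the step left its value at 0.25 (limma adjusted p = 0.0201).

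With shRNA2 against shRNA1, 3 of these 19 hosts were called, all lower, as *GAS5* and *SNHG1* were, beside 6.71% of all genes. They were *SNHG12* (−0.47, limma adjusted p = 0.0299), *SNHG17* (−0.31, limma adjusted p = 0.0270) and *SNHG11* (−0.29, limma adjusted p = 0.0172), named after their values were seen. *ZFAS1* rose with both hairpins, by 0.43 with shRNA1 (limma adjusted p = 0.00192) and 0.38 with shRNA2 (limma adjusted p = 0.00120).

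All 8 proteins of the snoRNA particles had values above 0 with knockdown, with a median of 0.16. Limma called 5 of the 8, and these were all higher, against 13.5% of all genes called higher. The 4 with the largest change were *NOP56* (0.19, limma adjusted p = 0.00453) and *NOP58* (0.17, limma adjusted p = 0.00962), which bind box C/D snoRNAs, and *DKC1* (0.18, limma adjusted p = 0.00441) and *NOP10* (0.18, limma adjusted p = 0.0342), which bind box H/ACA snoRNAs. With the length trend removed the median was 0.05, and 2 were called, against 12.1% of all genes.

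Other long noncoding RNAs showed no common direction. Of 34 listed, 22 were tested, and 11 had values above and 11 below 0, with a median of 0.01. Limma called 3 with knockdown, all higher, *CYTOR* (0.32, limma adjusted p = 0.00973), *PVT1* (0.21, limma adjusted p = 0.0194) and *LINC00467* (0.17, limma adjusted p = 0.0161). This is near the 13.5% of all genes called higher, of 20.6% called in all, and is no result about this list. With the length trend removed 2 were called higher and 1 lower, where 12.1% of all genes were called. At least 1 annotated transcript starting with C and 4 pyrimidines was present for 8 of these 34 genes and for 10 of 20 other hosts, beside 6.75% of all genes.

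The genes of nonsense-mediated decay, which removes several host transcripts, were mixed. Of 10 tested, limma called 2 with knockdown, both lower, which is near the 20.6% of all genes called and is no result about this list. *UPF1*, its central helicase, was at 22.3 ± 0.868 FPKM (n = 3, SD) in control cells and 19.2 ± 0.549 FPKM (n = 6, SD) with knockdown, which is −0.21 on the log2 scale (limma adjusted p = 0.00572). *SMG6*, its endonuclease, changed by −0.20 (limma adjusted p = 0.00586).

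Among 7 genes of nuclear speckles and of the *MALAT1* 3′ end, 2 were called lower and 2 higher with knockdown, beside 20.6% of all genes called. *SRRM2*, a speckle scaffold protein, fell from 66.0 ± 2.26 FPKM (n = 3, SD) to 46.3 ± 2.26 FPKM (n = 6, SD), a log2 fold change of −0.50 (limma adjusted p = 0.000789). *SON*, the other scaffold, changed by −0.21 (limma adjusted p = 0.00961). The splicing factor gene *SRSF2* rose by 0.12 (limma adjusted p = 0.0392) and *ELAC2*, whose product trims the small RNA cut from *MALAT1*, by 0.09 (limma adjusted p = 0.0358). With the length trend removed *SRRM2* alone of the 7 was called (−0.37, limma adjusted p = 0.00143), and the adjusted p was 0.0721 for *SON*, 0.281 for *SRSF2* and 0.0775 for *ELAC2*.

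*METTL16*, whose product binds the *MALAT1* triple helix, was at 10.8 ± 0.290 FPKM in control cells, 8.81 ± 0.0580 FPKM with shRNA1 and 11.2 ± 0.631 FPKM with shRNA2 (n = 3 each, SD). It fell with shRNA1 (−0.27, limma adjusted p = 0.00708) and was higher with shRNA2 than with shRNA1 (0.32, limma adjusted p = 0.00473). It was singled out after its values were seen. Whether the levels of *METTL16* and *MALAT1* bear on each other was not tested.

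Of 11 paraspeckle proteins, all tested, 2 were called higher with knockdown, *NONO* (0.09, limma adjusted p = 0.0351) and *PSPC1* (0.13, limma adjusted p = 0.00909), with a median of 0.02 over the list. This share was near the 20.6% of all genes, and with the length trend removed neither was called (limma adjusted p = 0.172 and 0.210). *SFPQ*, the partner of both, had a log2 fold change of −0.26 that was not called (limma adjusted p = 0.112). It was called lower with shRNA2 (−0.43, limma adjusted p = 0.000543) and differed between the hairpins (−0.34, limma adjusted p = 0.00233). *NEAT1* was called lower with shRNA1 and *SFPQ* with shRNA2. Of the *NORAD* partners, *RBMX* was called higher (0.10, limma adjusted p = 0.0429, and 0.473 with the length trend removed), and *PUM2* was at −0.14 (limma adjusted p = 0.0941). *SFPQ* and *PUM2* were singled out after their values were seen.

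The nearest tested genes on the chromosomes did not all follow their noncoding neighbours. Next to *NEAT1* and *MALAT1* on chromosome 11, *FRMD8* and *FAUP4* had log2 fold changes of −0.0020 and 0.05 with knockdown and were not called. *SLC3A2*, which starts 223 bases from *SNHG1* and encodes an amino acid transporter chain, rose by 0.28 with shRNA1 (limma adjusted p = 0.00679) and 0.21 with shRNA2 (limma adjusted p = 0.00976). *WDR74*, on the other side of *SNHG1*, rose by 0.21 with knockdown (limma adjusted p = 0.00793). Next to *NORAD*, *EPB41L1* fell by a log2 fold change of −0.24 (limma adjusted p = 0.00371). Next to *OIP5-AS1*, *CHP1* changed by −0.19 (limma adjusted p = 0.00266). Next to *KCNQ1OT1*, *GAS5*, *SNHG5*, *SNHG8* and *EPB41L4A-AS1* no neighbour was called with knockdown. The nearest tested gene was often far off, such as *EPB41L1* at 40453 bases from *NORAD* and *ZNF292* at 1476831 bases from *SNHG5*. Limma called 20.6% of all tested genes with knockdown, and a link between any RNA and its neighbour was not tested.

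The genes whose levels followed *MALAT1* most closely over the 9 libraries were *EID3* (Pearson's r = 0.973), *APPAT* (r = 0.960) and *CEBPD* (r = 0.929). *CEBPD* was at 65.6 to 68.8 FPKM in control cells, 55.3 to 56.8 FPKM with shRNA1 and 54.6 to 67.5 FPKM with shRNA2, and, like *MALAT1*, was lowest of its shRNA2 group in replicate 2. For *GAS5* they included *TNFRSF12A* (r = 0.977) and *DKK1* (r = 0.975). *DKK1* was at 33.7 to 35.1 FPKM in control cells, 44.1 to 44.6 FPKM with shRNA1 and 37.4 to 40.2 FPKM with shRNA2, the same order of groups as *GAS5*. These r were among the highest over all tested genes, share the same libraries and are given as a description.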

How the data were processed

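The submitters' processing notes name STAR, Cufflinks and hg38 (GRCh38), on which the authors measured RefSeq transcripts in 9 libraries. The deposited tables give FPKM with confidence bounds per transcript and no counts, and depth was estimated from the bounds. The study's methods name a stranded, poly(A)-selecting kit (TruSeq Stranded mRNA), and tool versions and the strand setting were not given in the sources used here. Transcript FPKM of the 83497 entries were summed per gene (27902 genes, of which 42 with an unusable entry were left out). The 12509 genes that averaged 1 FPKM or more were tested on log2(FPKM + 1) with limma 3.58.1 in R 4.3.3 and Benjamini-Hochberg adjustment over all of them, calling an adjusted p under 0.05. This scale understates changes of low genes. Knockdown (6 libraries) was compared with control (3), and the other contrasts came from a fit of 3 groups. Length trends were removed by lowess (span 0.3), using GENCODE 29 lengths known for 98.3% of tested genes. The fits were tested on simulated data. Alternatives were other pseudocounts, filters, scalings and transcript choices, GC trends, a replicate block, left-out libraries and the study's criteria. The members and gene lists were chosen with earlier results of these data known. All 10 members were named, with up to 4 called genes of each list by size of change, the nearest tested genes, *FZD6* and the 3 genes most correlated with *MALAT1* and *GAS5*. Others are marked as named after their values were seen. Some genes that this rule names are not reported here.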

Additional observations from a re-analysis of the deposited data

Results flagged for a closer look

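Among the 9 tested RNAs, 3 differed between the hairpins by the direct limma test, with shRNA2 minus shRNA1 log2 differences of −0.54 for *SNHG1*, −0.28 for *GAS5* and 0.34 for *NEAT1*. All 3 shRNA1 libraries and all 3 shRNA2 libraries lay on separate sides for each of them, as was so for 26.4% of all tested genes. The direct limma test called 6.71% of all tested genes.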

How the results depend on the processing

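Of 816 values of single RNAs under alternatives, 737 kept their direction and their side of the threshold, 42 lost and 17 gained a call, and 20 changed sign, none of them called. The count of RNAs called with knockdown (4) was 1 with the length trend removed, with or without a replicate block, and 2 by the study's criteria, and ranged from 1 to 5 over left-out libraries. With shRNA1 (6) it was 3 on the longest accession only, where 6 RNAs could be tested. With shRNA2 (4) it was 1 with the length trend removed, with or without the block, and 0 by the study's criteria (all 9 tested by an equal-variance test at p under 0.01 and a 1.2-fold change; *GAS5*, *SNHG5* and *SNHG8* passed the first criterion but not the other), and ranged from 2 to 5 over left-out libraries. Between the hairpins (3) it was 1 on the longest accession.

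The long minus host difference was −0.49 with a pseudocount of 0.01, −0.31 with the length trend removed, with or without the block, −0.57 on the longest accession, and −0.48 to −0.39 over left-out libraries. Calls of single transcripts with knockdown (1) were 0 with a pseudocount of 0.1, centring, quantile normalization or the replicate block, 3 at a mean of 5 FPKM or more, and 0 to 2 over left-out libraries.

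Signs changed with the length trend removed, with the same value with and without the replicate block, for *OIP5-AS1* (0.0262 with knockdown, 0.0327 with shRNA1, 0.0197 with shRNA2, −0.013 between hairpins), *SNHG1* (−0.0331 with shRNA2) and *EPB41L4A-AS1* (0.0024 between hairpins). Over left-out libraries *MALAT1* with shRNA2 ranged from −0.2127 to 0.0207, and the differences between hairpins from −0.0533 to 0.0826 for *NORAD*, −0.0442 to 0.0466 for *OIP5-AS1*, −0.0501 to 0.0039 for *SNHG5* and −0.051 to 0.0538 for *EPB41L4A-AS1*. The cause was not tested.

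Over all tested genes, correlations of same-numbered deviations were −0.071 to 0.111, so replicate numbers showed no general pairing. A pairing for single RNAs was not tested, and *MALAT1* was lowest in replicate 2 and highest in replicate 3 of every group. With the replicate block the counts were 4, 7, 4 and 4 for knockdown, shRNA1, shRNA2 and the hairpins, the added call being *MALAT1* (limma adjusted p = 0.00799 with shRNA1 and 0.0149 between hairpins). With 3 libraries a group and no read counts, small changes of low RNAs such as *KCNQ1OT1* could not be resolved.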
